A study of Homo sapiens with 18 samples.

Results

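The genes described here take glucose to lactate, to the pentose phosphate pathway and to the mitochondrial pyruvate dehydrogenase reaction. The list named 36 genes, and a gene was kept where its mean over all 18 libraries was at least 1 TPM. TPM is the share of a gene among all transcripts counted in its library, after scaling for length, and not an absolute amount. 34 of the 36 were kept, out of 14117 genes in the table that reached that mean and 45372 symbols in all. ENO2, the neuronal enolase, lay between 0.330 and 0.698 TPM over the libraries, and PDK4, a fasting-induced pyruvate dehydrogenase kinase, between 0 and 0.573 TPM, and both were left out of the tests.

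The libraries were RNA-seq of MV4-11 and THP1, both established human acute myeloid leukemia cell lines that carry a rearranged KMT2A gene. Each line was cultured with the solvent DMSO or with 50 nM IACS (IACS-010759, an inhibitor of respiratory complex I) for 8 or 24 h, with 3 replicates in each of the 6 groups. The same DMSO libraries served as the control of both times, and the length of the DMSO culture was not given in the sources used here. Each line is 1 culture lineage, so a difference between the lines is a difference between 2 models and not between classes of leukemia.

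Glucose enters through GLUT carriers and is trapped by hexokinases, and the upper steps of glycolysis spend ATP to split it into triose phosphates. The lower steps return ATP and NADH and end in pyruvate, which is either reduced to lactate by lactate dehydrogenase or carried into the mitochondrion and oxidized by pyruvate dehydrogenase. When complex I is blocked, mitochondrial NADH is not reoxidized by the respiratory chain and cells depend more on ATP from glycolysis. Many of these steps are served by several genes whose enzymes differ in regulation, so both the level and the isoform were examined.

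The myeloid genes PTPRC, CD33, SPI1, HOXA9, FLT3, LYZ and CSF1R were present in both lines, and MEIS1 was at 23.6 TPM in MV4-11 DMSO libraries and 0.013 TPM in THP1 DMSO libraries. Of the genes of other cell types, T-cell, erythroid, epithelial and fibroblast markers were at or near 0 in DMSO, as was the B-cell gene MS4A1. A set of 5 noncoding RNAs took from 39.6 to 60.1% of the TPM of a library, which is not its share of reads. MV4-11 IACS 8 h replicate 3 had the smallest share and THP1 IACS 24 h replicate 3 the largest, and the listed genes together made up 0.825% of the TPM in the former, the highest of the 18 libraries, and 0.339% in the latter, the lowest. Because of this spread, changes are given as deposited and, where it matters, after median-of-ratios scaling, which sets the typical gene to no change. Calls were also recomputed with TPM without the 5 RNAs, as given in the last section. Why the share differed between libraries was not tested. In bulk RNA, fewer cells expressing a gene and less RNA per cell cannot be told apart.

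The members spanned 3 orders of magnitude. GAPDH, the glyceraldehyde-3-phosphate dehydrogenase that makes NADH, was the most abundant, at 2795, 2912 and 2621 TPM in the MV4-11 DMSO libraries and 1139, 1109 and 1105 TPM in those of THP1. ENO1, ALDOA, TPI1, PGAM1 and LDHB followed in MV4-11, and ENO1, ALDOA, LDHB and PGAM1 in THP1. The regulators were low: each PFKFB and PDK gene lay under 15 TPM in every library. GAPDH, ENO1 and several other members have processed pseudogenes in the genome, and ENO1 overlaps an antisense gene that an unstranded kit cannot separate, so their TPM may hold or lose reads of those copies. TPM keep no read count, so the depth behind each value is unknown and no counting interval is given.

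**Figure D1:**
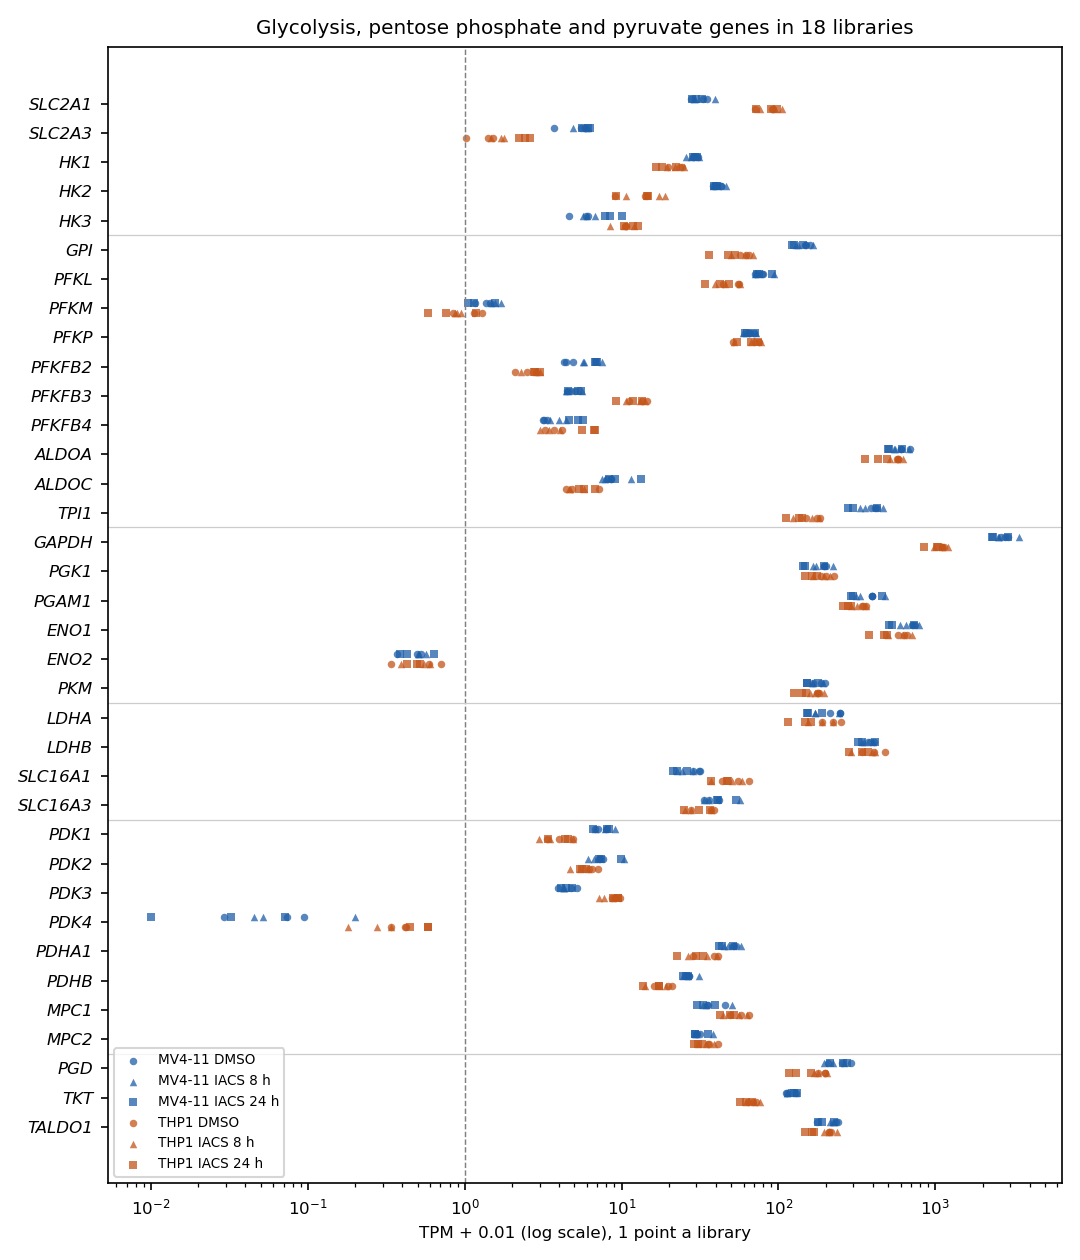
TPM plus 0.01 (log axis) of the 36 listed genes, ordered from glucose entry at the top to the pentose phosphate genes at the bottom, with 1 point for each of the 18 libraries, MV4-11 in blue and THP1 in orange, and symbols by treatment. The dashed line marks 1 TPM, and ENO2 and PDK4 lie below it in all libraries. HK2, GPI, TPI1 and GAPDH lie lower in all THP1 libraries, and SLC2A1, PFKFB3 and SLC16A1 higher.

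The first question was whether these genes respond to complex I inhibition. After IACS, no member passed the test as deposited in either line at either time, by limma on log2(TPM + 1) with p adjusted by Benjamini-Hochberg over all genes. A call required a value under 0.05 and a change of more than 1.5-fold on that scale. The largest falls at 24 h were of LDHA in both lines and of ENO1 and PGD in THP1. The largest rises were of PFKFB4 in both lines, of HK3 and PFKFB2 in MV4-11 and of SLC2A3 in THP1. In MV4-11 at 8 h, 0 of 34 members were called, beside 0.0148% of all genes, and at an unadjusted p under 0.05 there were 1 higher and 0 lower, against 3.39% and 0.997%. In MV4-11 at 24 h, 0 of 34 were called, beside 0.0886% of all genes, and at an unadjusted p under 0.05 there were 3 higher and 2 lower, against 9.66% and 2.36% of all genes. In THP1, 0 of 33 were called at 8 h beside 0.0144% and 0 of 33 at 24 h beside 0.0431%, and at an unadjusted p under 0.05 there were 0 at 8 h and 2 higher and 10 lower at 24 h. Over all genes these shares in THP1 were 0.251% higher and 1.86% lower at 8 h, and 1.49% and 7.12% at 24 h. An exact Kruskal-Wallis test over the 3 groups of a line, with the same fold and no adjustment, gave 0 members in each of these comparisons. Its p is shared by both times and takes few values with 3 libraries a group. The count of 0 therefore does not show that no member changed.

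LDHA, the lactate dehydrogenase subunit that favors the reduction of pyruvate to lactate, was the member with the lowest fold in 3 of the 4 comparisons and second lowest in the THP1 8 h one. In MV4-11 it stood at 246, 247 and 213 TPM in DMSO, at 171, 171 and 242 at 8 h, and at 151, 153 and 190 at 24 h. In THP1 it stood at 251, 224 and 190 TPM in DMSO, at 190, 224 and 155 at 8 h, and at 147, 161 and 114 at 24 h. In both lines every 24 h library was below every DMSO library, whereas the 8 h libraries overlapped the DMSO range as deposited. After scaling the MV4-11 8 h libraries, at 166 to 195, also lay below those of DMSO, at 221 to 239, and the THP1 8 h libraries still overlapped. The log2 fold change at 24 h was -0.52 ± 0.16 (SE, n = 3 against 3) in MV4-11 and -0.66 ± 0.18 in THP1, with limma adjusted p of 0.235 and 0.400. After median-of-ratios scaling it was -0.60 with an adjusted p of 0.0291 in MV4-11, a call where 0.621% of all genes were called, and -0.52 with an adjusted p of 0.0150 in THP1, short of the fold. Deviations of same-numbered DMSO and 24 h libraries were positively correlated in both lines, at the values given below. With the replicate block the LDHA change of -0.66 in THP1 was called, at a limma adjusted p of 0.00297, where 1.73% of genes were called lower. With the block and scaling together LDHA was not called in THP1.

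PFKFB4 makes fructose 2,6-bisphosphate, the allosteric activator of phosphofructokinase, and also breaks it down. It stood at 3.15, 3.32 and 3.21 TPM in MV4-11 DMSO libraries, at 3.49, 3.98 and 4.40 at 8 h and at 5.70, 5.23 and 4.63 at 24 h. In THP1 it stood at 4.18, 3.68 and 3.22 TPM in DMSO, at 3.41, 4.07 and 2.99 at 8 h and at 6.72, 6.62 and 5.55 at 24 h. The MV4-11 libraries of the 3 groups did not overlap and lay in the order of time, whereas in THP1 the 24 h libraries alone stood above the rest. At 24 h the ratio of mean TPM to DMSO was 1.61 in MV4-11 and 1.71 in THP1, and the log2 fold change on log2(TPM + 1), which understates ratios of low genes, was 0.55 ± 0.13 and 0.64 ± 0.16 (SE). The limma adjusted p was 0.127 and 0.345. With the replicate block, PFKFB4 rose in THP1 at 24 h, at a limma adjusted p of 0.00675, where 0.395% of genes were called higher. It also rose after scaling, at 0.75 with a limma adjusted p of 0.00722, where 0.713% of all genes were called. In MV4-11 the scaled change of 0.47 had an adjusted p of 0.0291 but missed the fold.

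The promoter windows of these opposite movers are shown for ACGTG, a form of the hypoxia response element core, RCGTG (R being A or G). That element is a known control element of many glycolytic genes. From the RefSeq-based table (GRCh38.p14), windows of the 250 bases before each transcription start were matched to 33 of the 36 members, without SLC2A3, PFKFB2 and SLC16A1. Capitals mark ACGTG on either strand (ACGTG or CACGT), and the 6 letters CACGTG hold it on both strands at once.
In GENCODE v44 (GRCh38) LDHA lies at chr11:18394560-18408425 on the plus strand and PFKFB4 at chr3:48517684-48562015 on the minus strand.
LDHA, chr11:18394313-18394562, plus strand: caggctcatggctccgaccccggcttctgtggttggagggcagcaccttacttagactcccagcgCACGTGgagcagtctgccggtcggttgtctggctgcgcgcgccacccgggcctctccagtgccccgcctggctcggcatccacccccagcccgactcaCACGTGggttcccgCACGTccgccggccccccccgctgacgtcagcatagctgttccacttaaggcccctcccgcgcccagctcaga
PFKFB4, chr3:48556804-48557053, minus strand: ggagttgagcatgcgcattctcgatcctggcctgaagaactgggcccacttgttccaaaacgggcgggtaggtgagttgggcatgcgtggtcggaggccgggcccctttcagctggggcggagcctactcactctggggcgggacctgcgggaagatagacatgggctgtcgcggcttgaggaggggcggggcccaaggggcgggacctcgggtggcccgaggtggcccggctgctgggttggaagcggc
The LDHA window, the first of 2 for that gene, held 3 places with the letters, and the second, not shown, held none. The PFKFB4 window held no ACGTG, but it held GCGTG, the other form, which was not searched in any window. It also lies inside the PFKFB4 bounds given above and not before them. Among members with 1 window, 8 of 21 held ACGTG, beside 18.4% of all genes with 1 window, and over all windows it was 21 of 63, beside 18.5%. CACGTG was in 8 of the 63 member windows, beside 6.345% of all windows. A match describes letters only.

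**Figure D2:**
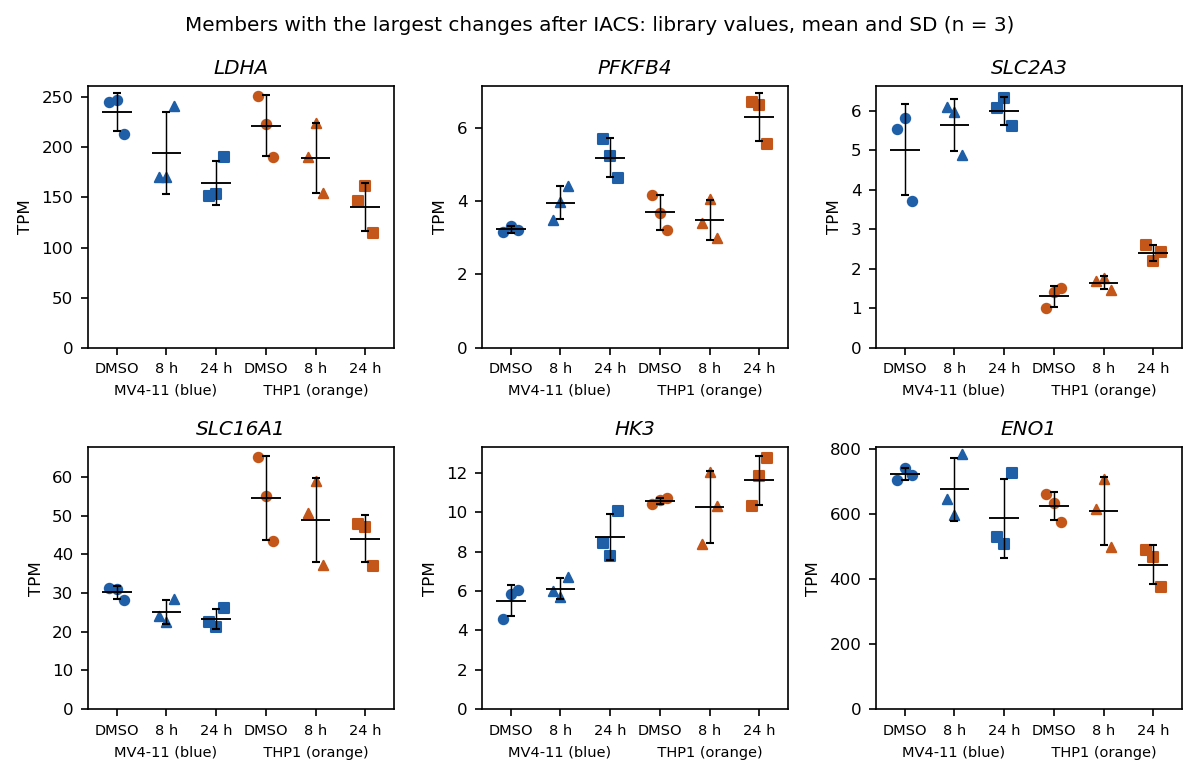
TPM (linear axis from 0) of the members with the largest movements after IACS, with 1 point for each library and the mean and SD of each group (n = 3). LDHA at 24 h lies below its DMSO libraries in both lines, PFKFB4 above them in both, HK3 above them in MV4-11 and SLC2A3 above them in THP1.

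At the entry step, changes with IACS were few. SLC2A1 (GLUT1), the basal glucose carrier, had log2 fold changes of 0.02 and -0.08 in MV4-11 and 0.13 and 0.03 in THP1 at 8 and 24 h. SLC2A3 (GLUT3), a high-affinity carrier, stood at 1.00, 1.4 and 1.5 TPM in THP1 DMSO libraries, at 1.70, 1.77 and 1.46 at 8 h and at 2.61, 2.20 and 2.41 at 24 h. All 24 h libraries were above all DMSO libraries. Mean TPM went from 1.30 to 2.40, a ratio that log2(TPM + 1) understates at this level. The log2 fold change was 0.57 ± 0.16 (SE) with a limma adjusted p of 0.414, or 0.0264 with the replicate block, short of the fold on that scale. With block and scaling together it was 0.65, a call, at a limma adjusted p of 0.0218, where 1.31% of all genes were called. In MV4-11 SLC2A3 stood at 5.53, 5.81 and 3.70 TPM in DMSO, at 6.08, 5.96 and 4.87 at 8 h and at 6.07, 6.31 and 5.60 at 24 h, so that the groups overlapped. SLC2A3 has a near-identical neighbor in SLC2A14, so the split of reads between them is uncertain.

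HK3, the hexokinase typical of myeloid cells, stood at 4.60, 5.88 and 6.05 TPM in MV4-11 DMSO libraries, at 5.99, 5.69 and 6.71 at 8 h and at 8.45, 7.77 and 10.1 at 24 h. The 24 h libraries were above all others, the log2 fold change was 0.59 ± 0.14 (SE) and the limma adjusted p was 0.127, and HK3 was called when MV4-11 IACS 8 h replicate 3 was left out of the fit. In THP1, HK3 was at 10.4, 10.6 and 10.7 TPM in DMSO and at 10.3, 11.8 and 12.8 at 24 h, with a log2 fold change of 0.12. HK2, the insulin- and hypoxia-responsive hexokinase, was the member with the highest fold in THP1 at 8 h, at 14.4, 14.1 and 9.09 TPM in DMSO against 17.2, 18.8 and 10.6. In that line replicate 3 was the lowest in each group, the groups overlapped, and the log2 fold change was 0.28 ± 0.25 (SE). It was 0.08 without THP1 DMSO replicate 3 and 0.52 without THP1 IACS 8 h replicate 3, and after scaling the groups did not overlap, at 10.5 to 13.3 in DMSO and 13.5 to 19.3 at 8 h.

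In upper glycolysis, PFKFB2, another maker of fructose 2,6-bisphosphate, stood at 4.40, 4.30 and 4.88 TPM in MV4-11 DMSO libraries, at 5.63, 5.78 and 7.43 at 8 h and at 6.74, 6.94 and 6.82 at 24 h. Every IACS library was above every DMSO library. At 8 h, 3 members were above and 0 below all DMSO libraries in MV4-11 (PFKFB2, PFKFB4 and PFKM), beside 7.13% and 1.65% of all genes. After scaling there were 2 above (PFKFB2 and PFKFB4) and 4 below (LDHA, SLC16A1, GPI and PGK1), beside 9.98% and 10.9%. The log2 fold change was 0.39 ± 0.13 at 8 h and 0.50 ± 0.13 at 24 h (SE), with limma adjusted p of 0.982 and 0.145, and after scaling the 24 h change of 0.43 had an adjusted p of 0.0325, short of the fold. PFKFB3, the PFKFB gene with the highest kinase activity, had a log2 fold change of 0.08 in MV4-11 and -0.17 in THP1 at 24 h. Of the enzymes, GPI (glucose-6-phosphate isomerase) and ALDOA (aldolase A) were at -0.22 and -0.23 in MV4-11 and at -0.43 and -0.44 in THP1, and TPI1 (triose phosphate isomerase) at -0.31 and -0.40. The phosphofructokinases PFKL and PFKP were at 0.06 and -0.04 in MV4-11 and at -0.32 and -0.01 in THP1, and ALDOC (aldolase C) at 0.24 and 0.12. PFKM, the muscle form, was between 0.578 and 1.69 TPM in the 18 libraries, and its mean in THP1 was under the filter.

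The 5 tested genes of lower glycolysis, GAPDH, PGK1, PGAM1, ENO1 and PKM, which carry out the steps from glyceraldehyde 3-phosphate to pyruvate, had negative log2 fold changes at 24 h in both lines, none of them called. They ranged from -0.32 to -0.15 in MV4-11 and from -0.50 to -0.21 in THP1, and after scaling from -0.41 to -0.24 and from -0.36 to -0.08. The median of this group was -0.30 below the median of all genes in MV4-11 and -0.23 in THP1. ENO1 (enolase) had the second lowest fold in THP1, at 664, 635 and 578 TPM in DMSO, 617, 710 and 500 at 8 h and 489, 469 and 377 at 24 h. The 24 h libraries lay below all DMSO libraries, and the log2 fold change was -0.50 ± 0.15 (SE) with a limma adjusted p of 0.454, or 0.00818 with the replicate block, short of the fold. At 8 h, all 5 lay between -0.12 and 0.01 in the 2 lines.

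The carriers of lactate export differed in sign in MV4-11. SLC16A1 (MCT1), a proton-linked carrier of lactate and pyruvate, stood at 31.4, 31.1 and 28.3 TPM in DMSO, at 24.1, 22.4 and 28.5 at 8 h and at 22.6, 21.3 and 26.1 at 24 h. The 24 h libraries were all below the DMSO libraries, and the log2 fold change was -0.37 ± 0.12 (SE) with a limma adjusted p of 0.273; after scaling it was -0.45 with an adjusted p of 0.0355, short of the fold. SLC16A3 (MCT4), the carrier of cells that export much lactate, was at 33.5, 36.1 and 41.6 TPM in DMSO and 40.3, 40.9 and 53.4 at 24 h. These groups overlapped, and the log2 fold change was 0.26 ± 0.19 (SE). In THP1 the corresponding changes were -0.29 and -0.16. LDHB, the subunit that favors lactate oxidation, was at -0.13 in MV4-11 and -0.30 in THP1 at 24 h.

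Around pyruvate entry, the kinases that switch pyruvate dehydrogenase off (PDK1, PDK2 and PDK3) lay between -0.18 and 0.12 at 24 h in both lines. PDK2 had the lowest fold in THP1 at 8 h, at 6.14, 7.04 and 6.46 TPM in DMSO against 4.70, 6.11 and 5.44, a log2 fold change of -0.24 ± 0.15 (SE). As deposited these libraries did not overlap, the only such member of that comparison, where 0.704% of all genes lay above and 4.06% below. After scaling PDK2 overlapped, and 3 members lay above all DMSO libraries (SLC2A1, HK2 and PFKFB2) and 0 below, beside 7.13% and 5.89%. The dehydrogenase subunits PDHA1 and PDHB were at -0.19 and -0.05 in MV4-11 and at -0.33 and -0.22 in THP1 at 24 h, and the mitochondrial pyruvate carrier subunits MPC1 and MPC2 at -0.17 and 0.04 and at -0.25 and -0.28. In the pentose phosphate pathway, PGD (6-phosphogluconate dehydrogenase, an NADPH source) was at -0.01 in MV4-11 and -0.49 in THP1, and TALDO1 (transaldolase) at -0.11 and -0.40. TKT (transketolase) was at 0.09 and -0.13. PGD stood at 197, 178 and 197 TPM in THP1 DMSO libraries and at 130, 162 and 117 at 24 h, without overlap.

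**Figure D3:**
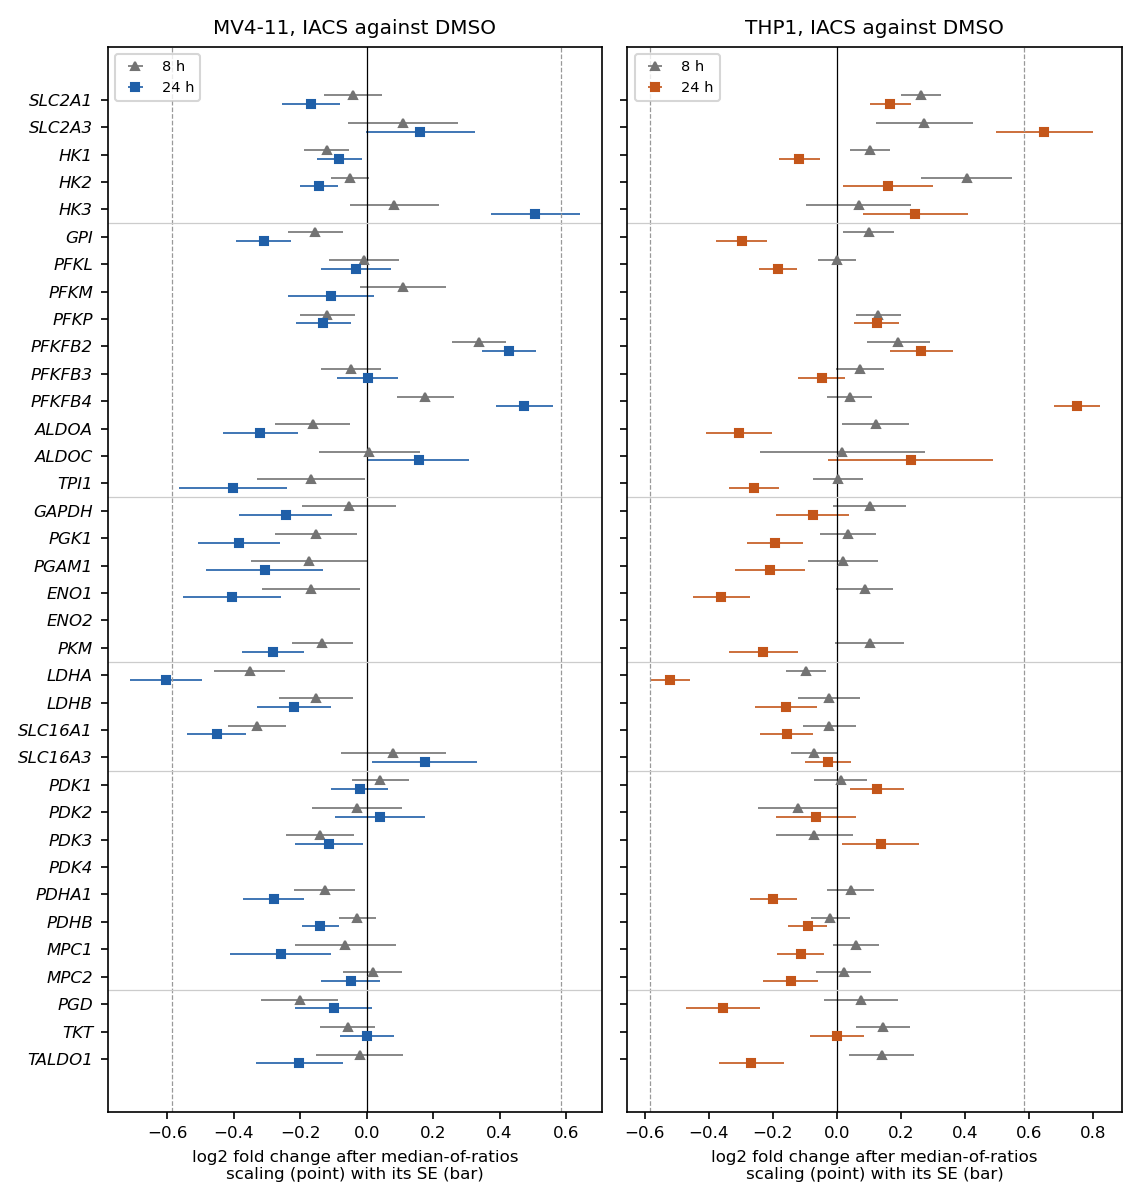
Log2 fold change of each tested member after IACS against DMSO following median-of-ratios scaling (horizontal axis, points) with its SE (bars), MV4-11 at left and THP1 at right, 8 h in gray and 24 h in color. Dashed lines mark the fold threshold, a 1.5-fold change, which LDHA passes in MV4-11 and PFKFB4 and SLC2A3 pass in THP1 at 24 h, SLC2A3 with an adjusted p of 0.0507.

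Counted over the list, the middle log2 change of the members at 24 h was -0.05 in MV4-11 and -0.25 in THP1, beside 0.08 and -0.12 over all genes tested. The THP1 median of all genes was also -0.12 at 8 h, so the values in that line are read against this shift. After scaling, the member medians at 24 h were -0.14 and -0.11, and 9 of 34 and 10 of 33 members lay above 0. In MV4-11 at 24 h, 3 members were above and 4 below all DMSO libraries, where 19.4% and 5.26% of all genes were. In THP1 at 24 h, 2 members were above and 13 below, where 3.32% and 10.2% of all genes were. After scaling these became 3 and 7 in MV4-11, beside 13.1% and 11.3%, and 6 and 9 in THP1, beside 14.4% and 12.6%. With the replicate block, THP1 had 1 member called higher and 1 lower, where 0.395% and 1.73% of all genes were called.

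From 8 to 24 h of IACS, 0 of 34 members were called in MV4-11, where 0% of all genes were, and 0 of 33 in THP1, where 0.00718% were. By limma at an unadjusted p under 0.05 there were 2 higher and 0 lower in MV4-11, against 1.53% and 0.775% of all genes, and 2 higher and 7 lower in THP1, against 2.69% and 2.3%. The Kruskal-Wallis test gave 0 in both. In THP1, PFKFB4 was at 0.70 ± 0.16 (SE) on the log2 scale with a limma adjusted p of 0.288. With the replicate block the adjusted p was 0.0105, the 1 call, higher, where 0.445% of all genes were called higher and 0.373% lower, and with scaling it was 0.0145, where 0.489% were called. The difference between the lines in their response was tested directly. It was called for 0 of 34 members at 8 h and 0 of 34 at 24 h, beside 0.00708% of all genes each time, with smallest limma adjusted p of 0.910 and 0.687, and 0 and 2 members had an unadjusted p under 0.05. All genes gave 0.12% higher and 3.04% lower at 8 h and 0.439% and 6.67% at 24 h. Those were HK3 and PGD at 24 h, at -0.47 and -0.48 for the THP1 response less the MV4-11 response. These comparisons do not show that the lines respond alike.

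The second question was how the lines differ. In DMSO, THP1 had 5 members called higher and 8 lower than MV4-11 among 34 tested, beside 19.7% and 17.2% of all genes. Together that was 13 of 34 members beside 36.9% of all genes, so the share of members called was close to that of all genes, and after scaling the count was again 13 beside 37.3%. SLC2A1, the main carrier of both lines, was at 33.1, 35.0 and 27.8 TPM in MV4-11 and 90.4, 91.7 and 71.3 in THP1, a ratio of means of 2.64 and a log2 fold change of 1.37 ± 0.16 (SE), with a limma adjusted p of 9.1e-07. SLC2A3 was 3.86-fold lower in THP1, although SLC2A14, its near-identical neighbor, was at 1.66 TPM there and 0.189 TPM in MV4-11.

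HK2 was at 43.2, 43.0 and 38.1 TPM in MV4-11 and 14.4, 14.1 and 9.09 in THP1, a log2 fold change of -1.67 ± 0.20 (SE) with a limma adjusted p of 1.3e-06. It was the lowest fold of the list. HK3 went the other way, at 0.84, and HK1, the housekeeping form, lay at -0.37, short of the fold.

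In upper glycolysis PFKFB3 was at 4.50, 5.07 and 4.73 TPM in MV4-11 and 13.6, 14.5 and 11.2 in THP1, a log2 fold change of 1.28 ± 0.15 (SE) with a limma adjusted p of 7.7e-07. PFKFB2 was lower, at -0.68. The enzymes GPI, at 149, 160 and 147 TPM in MV4-11 and 61.6, 64.8 and 56.8 in THP1, and TPI1 were 2.49- and 2.40-fold lower. GAPDH was 2.48-fold lower, whereas the enzymes next to it, PGK1 (phosphoglycerate kinase), PGAM1 (phosphoglycerate mutase), ENO1 and PKM (pyruvate kinase), lay between -0.21 and 0.04. ALDOA was at -0.14, LDHA at -0.09 and LDHB at 0.06.

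SLC16A1 was at 65.2, 55.0 and 43.4 TPM in THP1 against 31.4, 31.1 and 28.3 in MV4-11, a log2 fold change of 0.81 ± 0.17 (SE) with a limma adjusted p of 0.000594. At pyruvate entry PDK3 was at 9.71, 9.05 and 8.67 TPM in THP1 and 5.17, 4.78 and 3.92 in MV4-11, and PDK1 at 4.86, 3.97 and 3.33 against 7.98, 7.11 and 6.73. Their log2 fold changes were 0.86 ± 0.12 and -0.72 ± 0.16 (SE), in opposite directions and both called. PDHA1 and PDHB were at -0.54 and -0.48, and MPC1 at 0.55, short of the fold. In the pentose phosphate pathway TKT was 1.73-fold lower in THP1, at -0.78 ± 0.11 (SE), and TALDO1 was at -0.01.

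The lines were also compared in the IACS libraries. At 8 h, 5 members were called higher and 11 lower in THP1, beside 15.2% and 25% of all genes (40.2% either way), and at 24 h 4 higher and 14 lower, beside 15.6% and 27.2% (42.9%). HK3 was called in DMSO and at 8 h, but at 24 h it was at 0.38, short of the fold, and after scaling at 0.59, a call. In these groups the median of all genes was itself at -0.18 and -0.20, and after scaling the counts were 6 and 7 at 8 h, where 38% of all genes were called, and 6 and 9 at 24 h, where 40% were. Over all libraries, 4 members had the 9 THP1 libraries above the 9 MV4-11 libraries, SLC2A1, PFKFB3, SLC16A1 and PDK3, and 13 had them below, where 16.2% and 22.3% of all genes did (38.6% either way, and 47.8% after scaling). The 13 were SLC2A3, HK1, HK2, GPI, PFKL, PFKFB2, ALDOC, TPI1, GAPDH, PDK1, PDHA1, PDHB and TKT, and after scaling ALDOC and PDHA1 no longer separated.

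**Figure D4:**
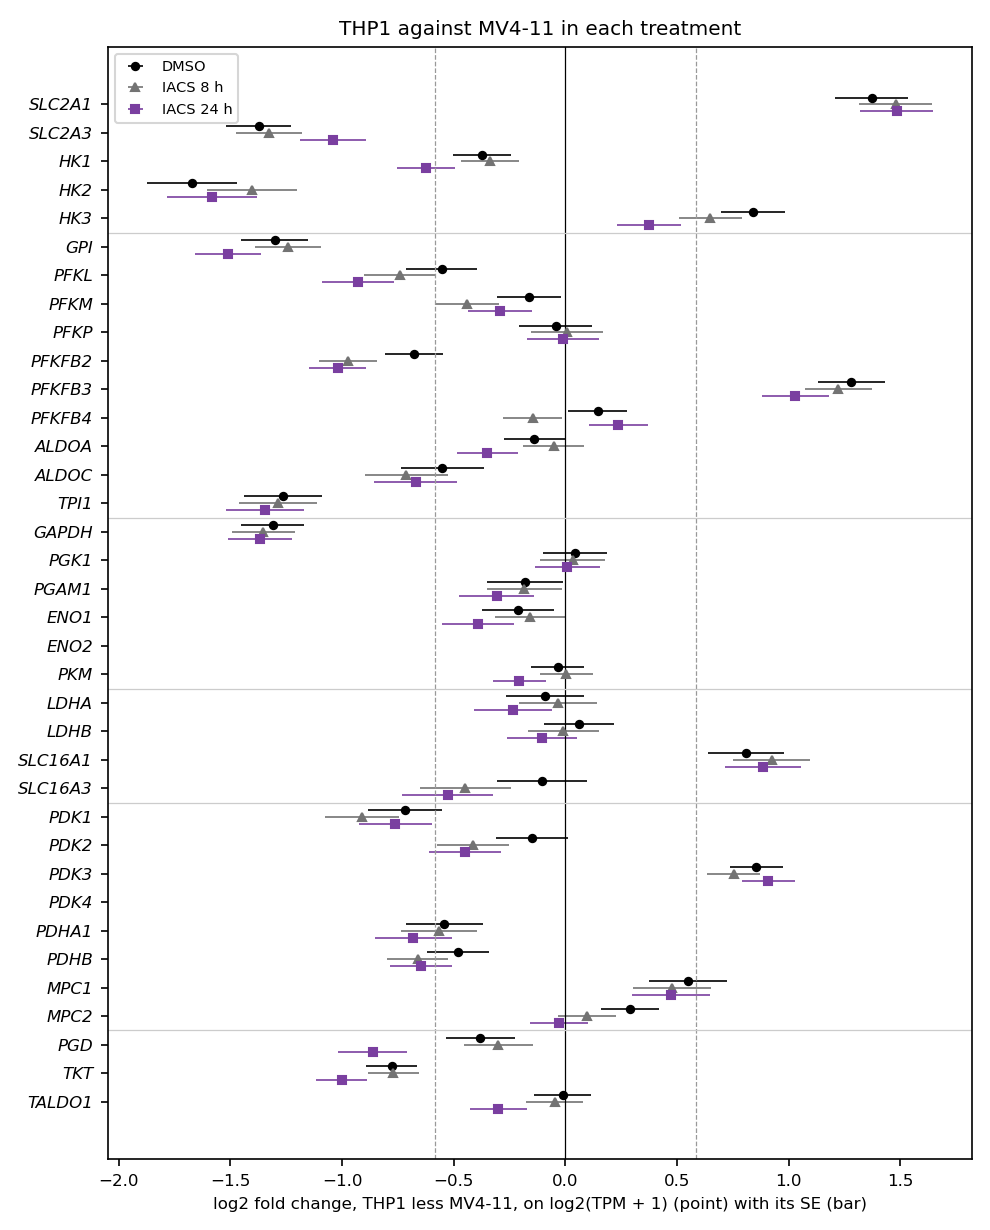
Log2 fold change of THP1 less MV4-11 on log2(TPM + 1) (horizontal axis, points) with its SE (bars) for each tested member, in DMSO, IACS 8 h and IACS 24 h. Dashed lines mark a 1.5-fold change. SLC2A1 and PFKFB3 lie above 1 and HK2, SLC2A3, GPI, TPI1 and GAPDH below -1 in all 3 treatments.

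Isoform use was described as the share of a gene in the summed TPM of the listed genes of its family. That share does not depend on how the library was scaled. The shares are given without a test. Of the 23 genes in 9 families, 15 had shares that did not overlap between the 9 libraries of each line, and they lay in 6 of the families. PDK4, left out of the tests for its low level, was among the 15. The shares of a family sum to 100%, so both genes of SLC2A1 and SLC2A3, and of SLC16A1 and SLC16A3, separate together. No such share was computed over all genes, whose levels separated the lines in 38.6% as deposited and 47.8% after scaling. SLC2A3 made up 11.0 to 17.9% of SLC2A1 plus SLC2A3 in MV4-11 and 1.10 to 3.26% in THP1. That sum leaves out the near-identical neighbor SLC2A14, which was higher in THP1, and the split of reads between them is uncertain. HK2 was the main hexokinase of MV4-11, at 48.8 to 56.7%, with HK1 at 36.5 to 39.6%. In THP1, HK1 led, at 42.1 to 49.9%, with HK2 at 23.0 to 36.3% and HK3 at 17.7 to 33.2%.

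PFKL was the larger phosphofructokinase share in MV4-11, at 51.5 to 55.7%, and PFKP in THP1, at 53.1 to 61.0%. PFKFB3 held 26.6 to 40.0% of the PFKFB genes in MV4-11 and 52.5 to 70.2% in THP1, and PFKFB2 33.9 to 42.7% and 11.98 to 15.8%. PDK3 held 17.9 to 25.3% of the PDK genes in MV4-11 and 43.8 to 50.1% in THP1, and SLC16A1 held 32.8 to 48.4% and 56.4 to 64.8% of the SLC16A1 plus SLC16A3 total. ALDOA made up 97.9% or more of ALDOA plus ALDOC and ENO1 99.9% of ENO1 plus ENO2 in every library. ENO3, which was tested with the neighboring genes, was not in that sum.

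Some shares moved with IACS. The LDHA share of the lactate dehydrogenase genes was 37.7 ± 1.27% (SD, n = 3) in MV4-11 DMSO libraries, 34.5 ± 2.72% at 8 h and 31.6 ± 0.87% at 24 h. The THP1 shares were 35.2 ± 0.72%, 34.1 ± 1.33% and 29.7 ± 2.06%. In both lines the ranges of DMSO and 24 h did not overlap. The PFKFB4 share in THP1 was 19.2 ± 1.26% in DMSO, 18.6 ± 0.81% at 8 h and 30.5 ± 1.48% at 24 h, and that of PFKFB3 went from 68.0 ± 2.15% to 55.5 ± 3.25% at 24 h. In MV4-11 the PFKFB3 share went from 38.0 ± 1.68% to 29.7 ± 2.69%, with PFKFB4 at 25.8 ± 0.64% and 30.3 ± 3.04%. In THP1 the PFKP share was 55.2 ± 2.02% in DMSO and 60.6 ± 0.54% at 24 h, whereas in MV4-11 it was 46.4 ± 1.43% and 44.7 ± 1.17%. SLC16A1 went from 45.0 ± 4.09% to 34.3 ± 1.56% of the pair in MV4-11 and from 61.0 ± 2.49% to 58.9 ± 2.15% in THP1.

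**Figure D5:**
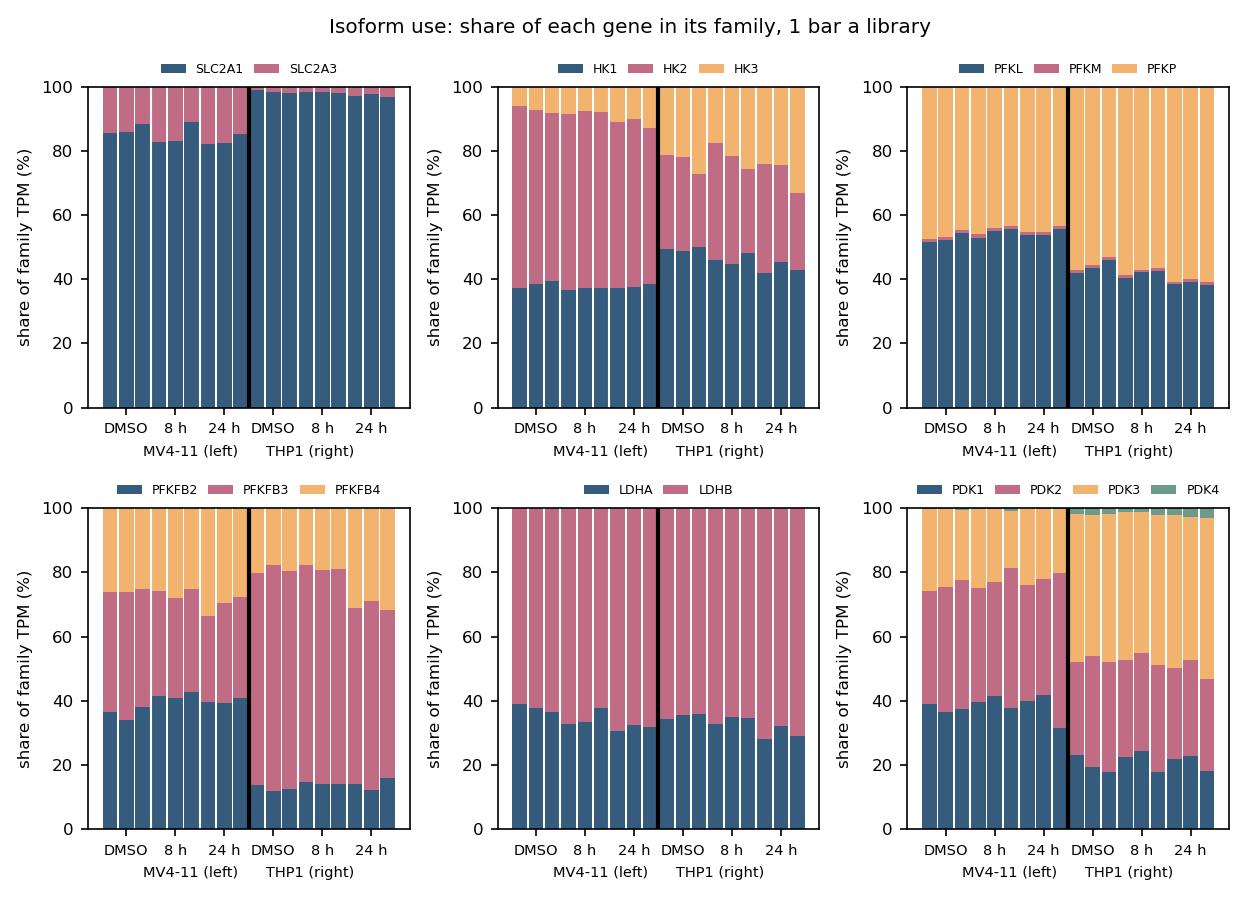
Share of each gene in the summed TPM of its family (percent, stacked to 100), with 1 bar a library, the 9 MV4-11 bars left and the 9 THP1 bars right of the black line, in the order DMSO, 8 h and 24 h. HK2, PFKL and PFKFB2 take larger shares in MV4-11, SLC2A1, HK3, PFKP, PFKFB3 and PDK3 in THP1, and the PFKFB4 share of THP1 is larger at 24 h.

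The neighboring branches were read from 6 lists of 83 genes, 82 of them in the table, of which 53 could be tested in MV4-11 and 58 in THP1. None was called after IACS at either time, between times or in the difference of responses, and scaling left these counts at 0. Their median log2 fold change at 24 h was -0.04 in MV4-11 and -0.16 in THP1. Between the lines in DMSO, 17 of 58 were called higher and 9 lower in THP1, beside 19.7% and 17.2% of all genes, and after scaling 19 and 9, with BPGM and FBP1 added. Of 9 tested carriers, 6 were higher, SLC2A5, SLC2A8, SLC2A9, SLC2A13, SLC2A14 and SLC16A7. SLC2A5, a fructose carrier, was at 33.5 against 3.13 TPM, SLC16A7 (MCT2), a pyruvate and lactate carrier, at 9.21 against 0.00447 TPM, and SLC2A8 at 3.21 TPM in THP1 and listed at 0 in MV4-11. BSG, the MCT chaperone, was lower, at 218 against 338 TPM. Of 9 other pentose phosphate genes, 2 were higher, H6PD, at 26.9 against 7.58 TPM, and the transketolase-like TKTL1, at 17.5 against 0.258 TPM, and SHPK, a sedoheptulose kinase, was lower.

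Of 13 other pyruvate genes, 3 were higher, the malic enzyme ME1, at 21.5 against 1.04 TPM, the mitochondrial PEP carboxykinase PCK2 and the lactate dehydrogenase LDHD, and 3 were lower, the pyruvate dehydrogenase phosphatase PDP1, at 9.11 against 20.5 TPM, PC (pyruvate carboxylase) and GPT2 (alanine transaminase). Of 9 NADH shuttle genes, GPD2, GOT1 and MDH1 were higher and SLC25A11 lower, MDH1 at 121 against 55.4 TPM. Of 13 genes of the glycogen and hexosamine branches, PGM2, PGM3 and GFPT1 were higher and the glycogen phosphorylases PYGB and PYGL lower. Of 5 other glycolysis genes, TIGAR, a fructose bisphosphatase that limits glycolysis, was lower, at 0.655 against 4.08 TPM.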

How the data were processed

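Total RNA of MV4-11 and THP1 cells was sequenced as paired-end, unstranded libraries, and the authors trimmed the reads, aligned them to GRCh38 (hg38) in CLC Genomics Workbench and deposited gene-level TPM in 1 table. The mapping settings for reads that match several places were not given in the sources used here. From these TPM, each gene whose mean in the fitted libraries reached 1 TPM was tested with limma 3.58.1 in R 4.3.3 on log2(TPM + 1) with a variance trend. Each line was fitted with its 9 libraries, and the lines were compared in a fit of all 18. p-values were adjusted by the Benjamini-Hochberg method over all genes of a fit, and a call needed an adjusted p under 0.05 together with a change of over 1.5-fold. limma replaced the Kruskal-Wallis and Dunn tests of the study, since with 3 libraries a group these allow no adjusted call, and the script was tested on simulated data.

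Replicates were called independent in the methods. Deviations of same-numbered libraries had positive r in every pair of groups of both lines, from 0.034 to 0.48. For THP1 DMSO and 24 h r was 0.15, 0.16 and 0.32. Values were 0.18, 0.28 and 0.36 for THP1 8 and 24 h, and 0.11, 0.41 and 0.44 for MV4-11 8 and 24 h. For MV4-11 DMSO and 24 h r was 0.27, 0.066 and 0.44. It was 0.044, 0.14 and 0.48 for THP1 DMSO and 8 h, and 0.034, 0.086 and 0.20 for MV4-11 DMSO and 8 h. The replicate block is given beside the result where it changes a call. The pairing comes from the data and not from the labels. The members and the gene lists were chosen with earlier results of these data known. Values in every library are given for members called after IACS, for the 2 highest and 2 lowest folds in each comparison with DMSO, and for the genes of a family whose share differs most between the lines. Gene positions are from GENCODE v44, and promoter windows from RefSeq (GRCh38.p14). The result for 1 marker gene is not reported here.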

Additional observations from a re-analysis of the deposited data

How the results depend on the processing

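Of 63 gene values, each recomputed under the 11 alternatives that applied and with each library left out, none changed its sign, 35 of 1609 recomputed values lost their call and 12 gained one. After IACS, LDHA in MV4-11 at 24 h gained a call with median-of-ratios scaling, with or without the replicate block (1 member called in place of 0), and HK3 at an unadjusted p (1). In THP1 at 24 h the count became 1 with scaling and 1 with TPM recomputed without the 5 noncoding RNAs (PFKFB4), 2 with the replicate block (PFKFB4 and LDHA), 2 with the block and scaling (PFKFB4 and SLC2A3) and 2 at an unadjusted p. Between 8 and 24 h in THP1 it became 1 (PFKFB4) under each of the same 5 settings. Between the lines, a filter at a mean of 10 TPM gave 7 members in DMSO and 9 at 8 h in place of 13 and 16, since fewer members were tested. Leaving out each library gave 0 to 1 in MV4-11 at 24 h (HK3, without MV4-11 IACS 8 h replicate 3), 0 in the other comparisons of IACS, times and responses, 13 to 15 in DMSO, 15 to 18 at 8 h and 15 to 19 at 24 h between the lines, and 15 of 23 isoform shares each time. Same-numbered libraries also had positive r in MV4-11 against DMSO and in THP1 DMSO against 8 h, at the values given above. Apart from the THP1 changes above, the replicate block changed no count of members. It raised the genes called in the whole table in MV4-11 from 2 to 10 at 8 h and from 12 to 100 at 24 h, and in THP1 from 2 to 9 at 8 h, from 6 to 296 at 24 h and from 1 to 114 between the times, and for the difference of responses at 24 h from 1 to 80. The cause was not tested. Scaling raised the calls at 24 h from 12 to 84 in MV4-11 and from 6 to 99 in THP1. With 3 libraries a group and no read counts, changes of low genes such as SLC2A3 and PFKM rest on few reads of unknown number.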
